A study of Mus musculus with 8 samples.

Results

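The Tal1 and Pdzk1ip1 domain is a 65 kb stretch of mouse chromosome 4 (mm9, chr4:114720000-114785000). It holds the genes Tal1 and Pdzk1ip1 and the enhancers named for their distance of 19 kb and 40 kb downstream of the Tal1 start. Its members are all peaks of open chromatin that overlap this stretch, 14 of the 134473 peaks in the table. They were chosen by position alone. Accessibility was measured by ATAC-seq, in which the transposase Tn5 inserts sequencing adapters into open DNA, by the Omni-ATAC procedure. The cells were MPP2 cells, marrow progenitors that can form several blood lineages and lean to megakaryocytes and red cells, from adult C57BL/6 mice 8 to 12 weeks old. Both groups were sorted as LSK cells (negative for lineage markers, positive for Sca1 and Kit), negative for Flt3, positive for CD150 and CD48, and positive for Gata1. The group Vwf+Gata1+ was also positive for Vwf, the gene of von Willebrand factor, and the group Vwf-Gata1+ was negative for it. Each group had 4 libraries of 500 cells. The sources used here give neither how Vwf and Gata1 were detected in the sort nor whether the libraries of a group came from separate animals. The p-values therefore measure only how much these libraries vary, which may be technical in part.

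Tal1, also called Scl, encodes a basic helix-loop-helix transcription factor that blood stem cells need in order to form and that red cells and megakaryocytes need in order to mature. It binds E-box sequences as a pair with an E protein, often in one complex with Lmo2, Ldb1 and Gata1 or Gata2. Its expression is set by enhancers spread over the neighbouring DNA. The +19 kb enhancer, known as the stem cell enhancer, works in blood stem cells, progenitors and endothelium through ETS and GATA sites. The +40 kb enhancer lies beyond Pdzk1ip1, is known for its activity in red cell precursors and is bound there by Gata1 and Tal1. Pdzk1ip1, also called Map17, encodes a small membrane-associated protein best known from the kidney, and is also expressed in blood stem cells.

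Both genes matched the RefSeq promoter table (build GRCm38.p6), Tal1 with 2 annotated starts and Pdzk1ip1 with 1. The sequences are shown because both gene starts lay in open chromatin in these cells. Each covers 250 bases before to 50 bases after a start, on the plus strand, written 5′ to 3′. Capitals mark matches, on either strand, to a GATA motif (GATAA), an E-box (CANNTG) or an ETS motif (CGGAA). No marked match overlapped another.
Tal1 first start, chr4:115056176-115056475: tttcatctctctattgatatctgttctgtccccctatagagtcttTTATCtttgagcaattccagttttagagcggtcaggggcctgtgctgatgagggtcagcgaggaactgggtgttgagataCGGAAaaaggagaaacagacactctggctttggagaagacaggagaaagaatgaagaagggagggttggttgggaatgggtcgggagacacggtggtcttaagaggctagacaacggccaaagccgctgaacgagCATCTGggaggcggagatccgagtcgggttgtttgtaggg
Tal1 second start, chr4:115057561-115057860: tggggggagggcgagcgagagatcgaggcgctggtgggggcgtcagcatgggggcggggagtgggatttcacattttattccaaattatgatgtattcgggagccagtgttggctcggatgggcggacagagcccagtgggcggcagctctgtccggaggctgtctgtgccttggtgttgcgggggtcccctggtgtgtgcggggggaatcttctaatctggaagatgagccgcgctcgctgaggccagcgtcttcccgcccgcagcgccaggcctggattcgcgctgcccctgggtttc
Pdzk1ip1 start, chr4:115088458-115088757: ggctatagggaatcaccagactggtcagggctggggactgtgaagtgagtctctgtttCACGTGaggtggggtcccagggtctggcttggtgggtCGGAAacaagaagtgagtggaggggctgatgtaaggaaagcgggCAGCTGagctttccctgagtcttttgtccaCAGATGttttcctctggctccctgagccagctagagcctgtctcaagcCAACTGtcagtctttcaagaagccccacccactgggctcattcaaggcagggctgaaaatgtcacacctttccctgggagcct

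The window at the first Tal1 start held 1 GATA match, at position -205 from the start, 1 ETS match at -125 and 1 E-box at 11. The window at the second Tal1 start, 1385 bp downstream in GRCm38.p6, held 0 matches to these 3 motifs and had a GC content of 64.3%, against 50.7% at the first. The Pdzk1ip1 window held 4 E-boxes, at -192, -111, -81 and -33, 1 ETS match at -155 and 0 GATA matches. Of 32544 RefSeq promoter windows of the same length, 25.3% held GATAA, 72.3% held CANNTG and 30.1% held CGGAA. These matches describe letters only. The enhancers are not printed, since their sequence in mm9 was not used here.

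Of the 14 peaks, 1 covered the Tal1 start, 2 lay upstream of it, 2 lay in the body of Tal1, 4 lay between the genes, 1 covered the Pdzk1ip1 start and 4 lay downstream of Pdzk1ip1. Positions are given as the distance of a peak's centre from the nominal Tal1 start at 114729000, which is approximate. The peak at the Tal1 start (114728944 to 114730456) was 1513 bp wide and ran from 56 bp before the nominal start to 1456 bp after it. Since the gene table is of another build, it was not determined whether the peak covers both RefSeq starts. The +19 kb enhancer position lay inside a peak of 817 bp (114747881 to 114748697), and the +40 kb position inside a peak of 1712 bp (114767984 to 114769695). The Pdzk1ip1 start lay inside a peak of 848 bp (114761163 to 114762010). No second peak lay within 1000 bp of any of these 4 positions. The peaks at the Tal1 start and at +40 kb were the widest of the 14. Widths over the domain ran from 215 to 1712 bp, with a median of 609 bp against 393 bp over all peaks.

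Total counts in peaks ran from 4628997 to 7753538 in Vwf+Gata1+ libraries and from 5447813 to 7670844 in Vwf-Gata1+ libraries. The domain received 1411 to 2030 counts per library in Vwf+Gata1+ libraries and 1540 to 1958 in Vwf-Gata1+ libraries. All signals below are CPM, counts per 1000000 counts of a library after TMM scaling between libraries. In a bulk assay, a smaller share of cells with an open site and less opening in each cell cannot be told apart.

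The domain was among the more accessible stretches of the genome in these cells. Its 14 peaks summed to 284.3 CPM over the 8 libraries, more than 99.6% of the 25142 windows of 65 kb that held a peak, whose median was 20.2 CPM. It also held more peaks than 95.7% of these windows, whose median was 4. These windows lay on a fixed grid, while the domain was placed around known genes and enhancers, so their placement was not alike. Of the domain's peaks, 12 were above the median of all peaks in CPM and 6 were in the top 10%. The neighbouring 65 kb upstream held 7 peaks that summed to 110.3 CPM, and the neighbouring 65 kb downstream held 6 peaks that summed to 28.7 CPM. The stretches without a peak next to its outermost peaks were 9.14 kb upstream and 11.3 kb downstream, and the widest inside it was 7.57 kb. How usual such stretches are over the genome was not tested, and the edges of the domain were set beforehand.

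**Figure D1:**
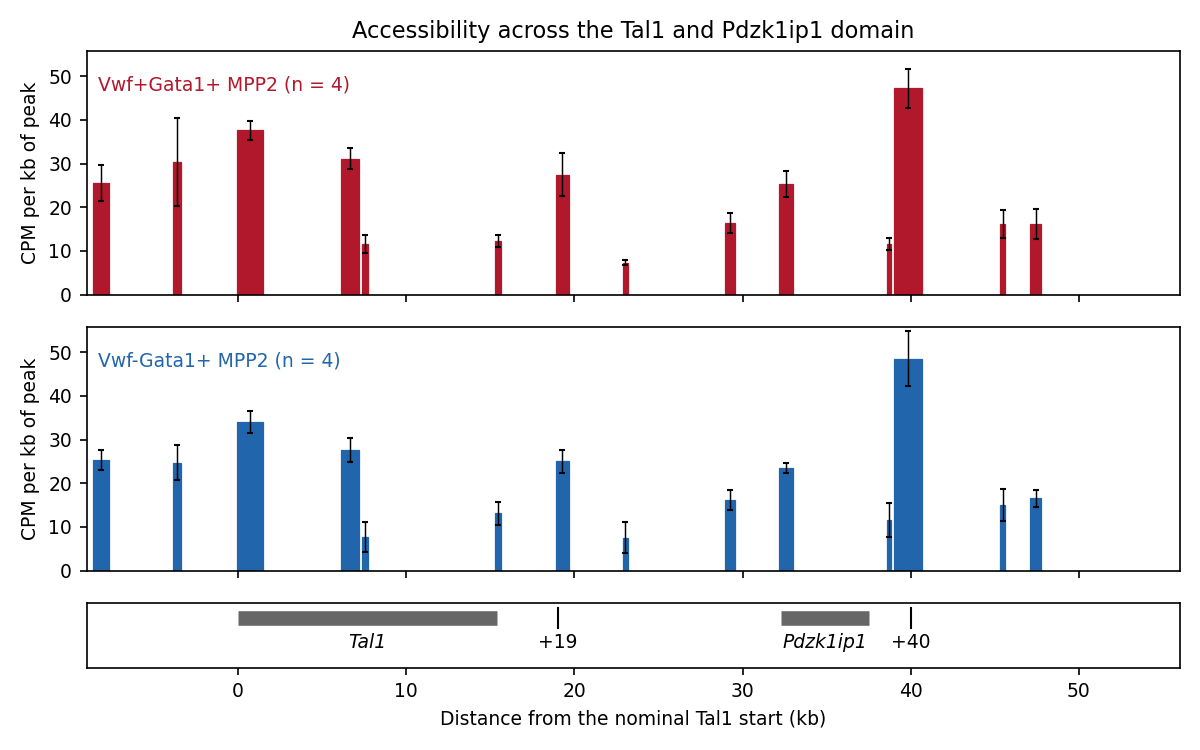
Mean signal of the 14 peaks in CPM per kb of peak (y axis) by distance from the nominal Tal1 start in kb (x axis), with Vwf+Gata1+ above and Vwf-Gata1+ below. Bars span each peak's true width, error bars are the SD over 4 libraries, and the lowest panel shows the nominal gene bodies and enhancer positions; the tallest bar in both groups is the peak at +40 kb, with 47.2 and 48.6 CPM per kb.

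Among the regulatory sites the +40 kb enhancer peak was the most accessible. It had 69.5, 82.4, 87.1 and 84.4 CPM in replicates 1 to 4 of Vwf+Gata1+ libraries, against 72.7, 77.2, 96.9 and 85.8 CPM in replicates 1 to 4 of Vwf-Gata1+ libraries. The groups overlapped, and replicate 1 was the lowest library of each. The fold difference was 0.972 with a 95% interval from 0.856 to 1.10, or -0.04 ± 0.09 on the log2 scale (SE, adjusted p = 0.972 in edgeR). Over the 8 libraries its mean signal was above that of 99.5% of all peaks.

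The Tal1 start, where the transcription factor gene itself begins, had the second strongest peak. Its signal was 55.2, 53.5, 61.4 and 57.4 CPM in Vwf+Gata1+ libraries, against 46.1, 51.4, 55.2 and 52.8 CPM in Vwf-Gata1+ libraries. The lowest library was replicate 1 of Vwf-Gata1+ libraries, and the groups overlapped. The means were 56.9 ± 3.43 and 51.4 ± 3.84 CPM (SD, n = 4 each), for which the log2 fold change was 0.15 ± 0.09 (SE, adjusted p = 0.808 in edgeR), and the 95% interval of the fold ran from 0.979 to 1.252.

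At the +19 kb stem cell enhancer the peak had 21.1, 18.95, 28.2 and 21.4 CPM in Vwf+Gata1+ libraries, against 18.03, 19.99, 23.2 and 20.6 CPM in Vwf-Gata1+ libraries. Replicate 3 was the highest library of each group, and the other libraries overlapped. The log2 fold change was 0.13 ± 0.12 (SE, adjusted p = 0.907 in edgeR), with a fold interval from 0.919 to 1.30. By mean signal it was above 90.7% of all peaks.

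The Pdzk1ip1 start had 22.1, 23.1, 22.9 and 17.8 CPM in Vwf+Gata1+ libraries, against 21.04, 18.9, 20.3 and 19.3 CPM in Vwf-Gata1+ libraries. The lowest value was replicate 4 of Vwf+Gata1+ libraries and the groups overlapped. The log2 fold change was 0.10 ± 0.12 (SE, adjusted p = 0.925 in edgeR), with a fold interval from 0.912 to 1.26.

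**Figure D2:**
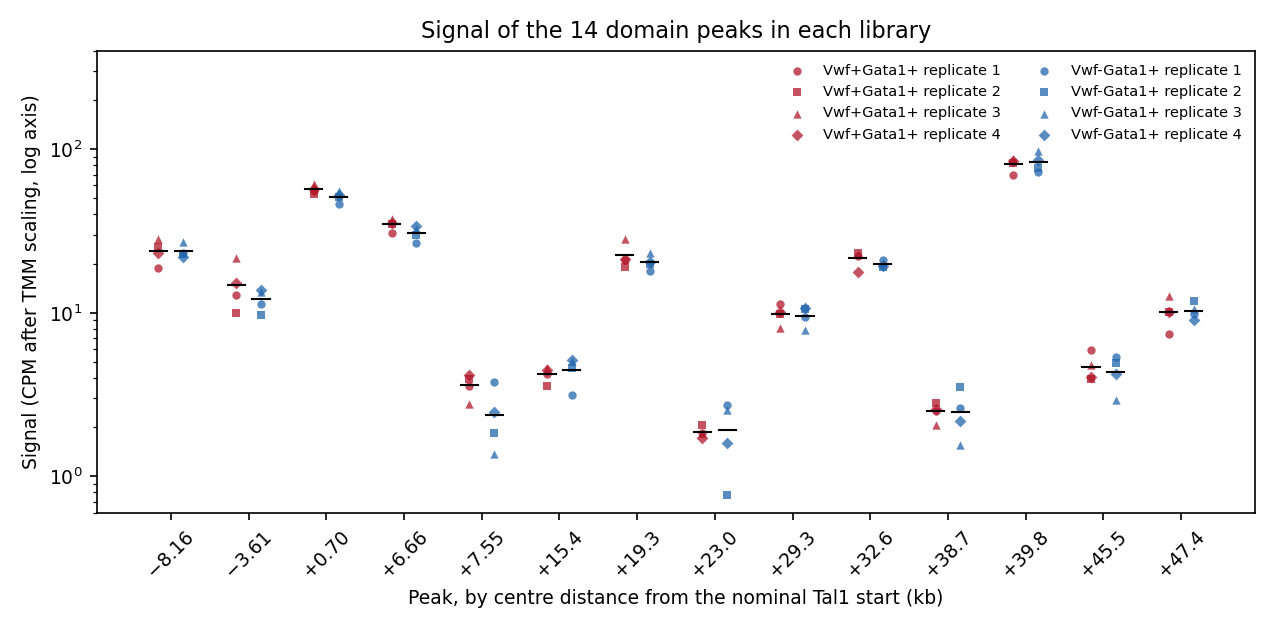
Signal of each of the 14 peaks in CPM after TMM scaling (log y axis), by peak centre in kb from the nominal Tal1 start (x axis), with Vwf+Gata1+ left of Vwf-Gata1+. Points are the 4 libraries of each group and lines are means; the points of both groups overlap at each of the 14 peaks.

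The 4 sites together held most of the domain's signal, 62.3% ± 0.506 of its counts in Vwf+Gata1+ libraries and 63.1% ± 1.47 in Vwf-Gata1+ libraries (SD, n = 4 each). The +40 kb peak alone held 27.7% ± 1.47 in Vwf+Gata1+ libraries and 29.9% ± 1.75 in Vwf-Gata1+ libraries. The Tal1 start held 19.5% ± 0.832 and 18.5% ± 0.477, in the same order of groups. The 4 sites were not the 4 strongest. Outside them, the peak at 6.66 kb and the one 8.16 kb upstream averaged 32.7 and 23.8 CPM over the 8 libraries. The +19 kb and Pdzk1ip1 start peaks averaged 21.4 and 20.7 CPM.

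The other peaks around the Tal1 gene are described outside the naming rule and after their values were seen. The peak 8.16 kb upstream (114720368 to 114721302) had 18.8 to 28.2 CPM in Vwf+Gata1+ libraries and 21.9 to 26.9 CPM in Vwf-Gata1+ libraries, a log2 fold change of -0.0042 ± 0.12 (SE). The peak 3.61 kb upstream (114725148 to 114725636) had 12.8, 9.95, 21.5 and 15.1 CPM in Vwf+Gata1+ libraries, against 11.2, 9.69, 13.5 and 13.9 CPM in Vwf-Gata1+ libraries. Its log2 fold change was 0.28 ± 0.17 (SE, adjusted p = 0.816 in edgeR). In the body of Tal1, the peak at 6.66 kb (114735107 to 114736221) was the third strongest of the domain, with 34.7 ± 2.7 CPM in Vwf+Gata1+ libraries and 30.8 ± 3.18 CPM in Vwf-Gata1+ libraries (SD, n = 4 each). Its log2 fold change was 0.17 ± 0.10 (SE, adjusted p = 0.807 in edgeR).

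The widest gap between the group means in relative terms was at a weak peak of 310 bp at 7.55 kb in the body of Tal1 (114736393 to 114736702). Only 171 bp parted it from the stronger peak at 6.66 kb, and whether they form 1 open site was not tested. The counts of the weak peak were 27, 21, 12 and 29 in Vwf+Gata1+ libraries and 29, 12, 7 and 17 in Vwf-Gata1+ libraries. In CPM these were 3.56, 3.94, 2.75 and 4.17 in Vwf+Gata1+ libraries, against 3.79, 1.85, 1.37 and 2.48 in Vwf-Gata1+ libraries. Replicate 1 of Vwf-Gata1+ libraries lay among the Vwf+Gata1+ libraries and the other libraries of that group lay below them. The log2 fold change was 0.57 ± 0.28 (SE), with a fold interval from 0.998 to 2.21 (edgeR unadjusted p = 0.0512, adjusted p = 0.748), so the difference did not pass the threshold. Without replicate 1 of Vwf-Gata1+ libraries the log2 fold change was 0.91 (edgeR adjusted p = 0.457).

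Between the genes and beyond Pdzk1ip1 the remaining peaks were weaker. Besides the +19 kb enhancer, the peaks between the genes lay at 15.4 kb (at the nominal end of Tal1), 23.0 kb and 29.3 kb. They had mean signals of 4.21, 1.87 and 9.79 CPM in Vwf+Gata1+ libraries and 4.48, 1.91 and 9.62 CPM in Vwf-Gata1+ libraries. The peak at 23.0 kb was the weakest of the domain, with 8 to 14 counts in Vwf+Gata1+ libraries and 5 to 21 in Vwf-Gata1+ libraries. Beside the +40 kb enhancer, the downstream peaks lay at 38.7, 45.5 and 47.4 kb, with 2.49, 4.68 and 10.04 CPM in Vwf+Gata1+ libraries and 2.47, 4.36 and 10.3 CPM in Vwf-Gata1+ libraries. The peak at 38.7 kb was parted from the +40 kb peak by 167 bp. The log2 fold changes of these 6 peaks ran from -0.07 to 0.09.

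Per kb of peak, which allows sites of unequal width to be compared, the +40 kb peak had 47.2 ± 4.55 CPM per kb in Vwf+Gata1+ libraries and 48.6 ± 6.24 in Vwf-Gata1+ libraries (SD, n = 4 each). It was above the Tal1 start, with 37.6 ± 2.27 and 33.96 ± 2.54 CPM per kb in the same order of groups, in 8 of 8 libraries. The Tal1 start was in turn above the gene body peak at 6.66 kb in 8 of 8 libraries, although their ranges overlapped. The next sites were not separated in this order. The peak at 6.66 kb was above the one 3.61 kb upstream in 7 of 8 libraries, that one above the +19 kb peak in 5, the +19 kb peak above the one 8.16 kb upstream in 4, and that one above the Pdzk1ip1 start in 5. The Pdzk1ip1 start was above the peak at 29.3 kb in 8 of 8 libraries, and the ranges of these neighbours did not overlap. Among the 7 peaks lowest in this order, a site exceeded the next in 5 to 7 of 8 libraries and all neighbouring ranges overlapped. The median over the 14 peaks was 20.4 CPM per kb, against 6.73 over all peaks.

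All 14 peaks passed the filter on low counts. None was called by edgeR's quasi-likelihood test at an adjusted p under 0.05, 0 of 14, where 0.0144% of the 97040 peaks tested were called. At an unadjusted p under 0.05 there were 0 of 14 in edgeR, against 6.72% of all tested peaks. DESeq2 gave 0 of 14, against 3.47% of all tested peaks, and limma-voom 1 of 14, against 7.46%. After adjustment, DESeq2 and limma-voom also called 0. The 2 groups of libraries overlapped at all 14 peaks, so 0 of 14 were without overlap, against 3.88% of all tested peaks. The log2 fold change was above 0 at 8 of 14 peaks, against 50.7% of all tested peaks. The median was 0.06, against 0.00 over all tested peaks, and the median size without regard to sign was 0.08, against 0.15. These values were not set against peaks of like signal. The domain's peaks were stronger than most, with a median of 11.8 CPM against 2.78 CPM over all peaks. Adjusted p-values ran from 0.748 to 0.9998.

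The intervals bounded the differences at most of the sites. For 13 of the 14 peaks the 95% interval of the fold lay within 2-fold in either direction, against 85.6% of all tested peaks, the exception being the weak peak at 7.55 kb. For 11 of the 14 it lay within 1.5-fold, against 41.5% of all tested peaks. The exceptions were the weak peaks at 7.55 kb and 23.0 kb and the stronger one 3.61 kb upstream, with an interval from 0.952 to 1.547. Standard errors of the log2 fold change ran from 0.09 at the Tal1 start to 0.35 at the peak at 23.0 kb. No correction for the number of peaks was made in these intervals, nor were they compared with those of peaks of like signal. A p that misses the threshold does not show that the groups are alike.

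**Figure D3:**
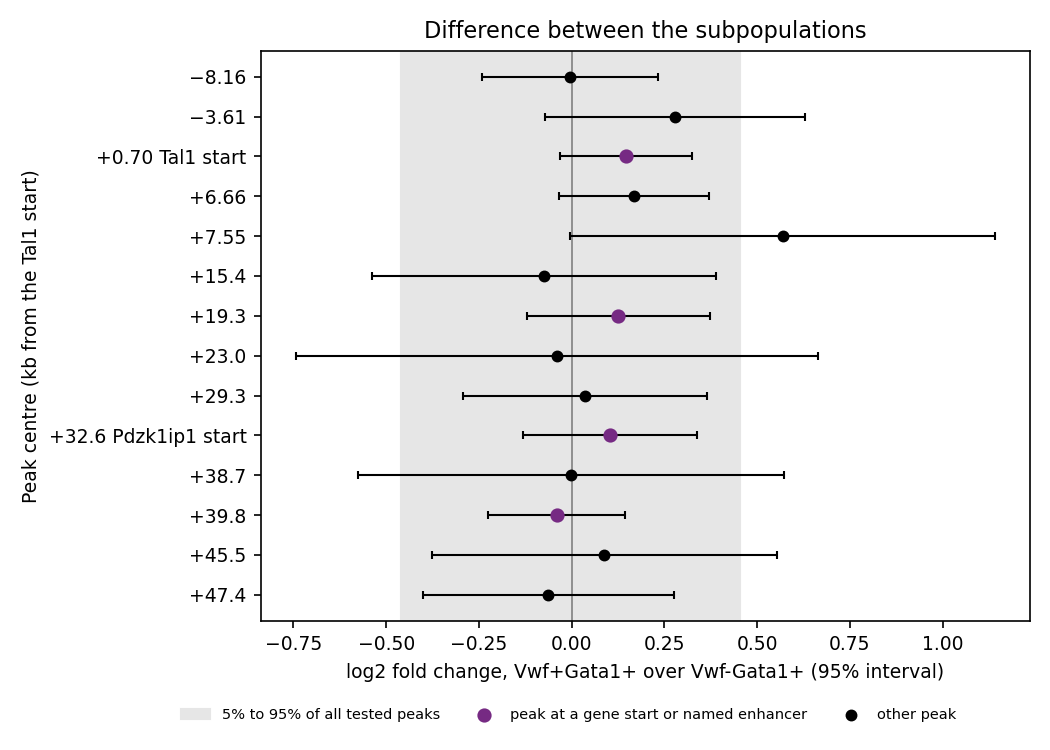
The log2 fold change of Vwf+Gata1+ over Vwf-Gata1+ (x axis) with its 95% interval for the 14 peaks, ordered by centre distance from the nominal Tal1 start in kb (y axis). The grey band spans the central 90% of log2 fold changes over all tested peaks, from -0.46 to 0.45; each of the 14 intervals includes 0, and 13 of the 14 points lie inside the band.

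The summed signal of the domain was 267.2, 284.3, 323.4 and 291.9 CPM in Vwf+Gata1+ libraries, against 255.9, 268.0, 300.3 and 283.6 CPM in Vwf-Gata1+ libraries. It was lowest in replicate 1 and highest in replicate 3 of each group, and the groups overlapped. At each replicate number the Vwf+Gata1+ library had the higher sum, for which no test was made. The means were 291.7 ± 23.5 CPM in Vwf+Gata1+ libraries and 276.9 ± 19.3 CPM in Vwf-Gata1+ libraries (SD, n = 4 each). They differed by less than either SD. These SDs take no account of the replicate numbers, and both groups had the same numbers at their lowest and highest library. At both ends the order of the replicates was the reverse of that of total counts. Replicate 1 had the highest total of its group, 7753538 in Vwf+Gata1+ libraries and 7670844 in Vwf-Gata1+ libraries, and replicate 3 the lowest, 4628997 and 5447813. Replicate 1 also had the lowest proportion of its total in the top 1% of peaks, 8.61% and 8.12% in the same order of groups. Replicate 3 had 9.38% and 9.56%. The latter was the highest of Vwf-Gata1+ libraries, while in Vwf+Gata1+ libraries replicate 2 was higher, with 9.64%. The part of depth or of this proportion in the summed signal was not tested.

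The balance between sites was then compared, since a ratio of counts of 2 peaks in 1 library does not depend on scaling between libraries. The +40 kb peak had 3.3, 4.35, 3.09 and 3.94 times the counts of the +19 kb peak in Vwf+Gata1+ libraries, against 4.03, 3.86, 4.18 and 4.17 times in Vwf-Gata1+ libraries. Replicates 1 and 3 of Vwf+Gata1+ libraries lay below all others, and replicate 2 of that group lay above all others. The mean log2 ratios were 1.86 ± 0.23 and 2.02 ± 0.05 in the same order of groups (SD, n = 4 each), a difference of -0.16 (2-sided exact permutation p = 0.314, adjusted over 3 ratios 0.8286).

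The Tal1 start had 2.62, 2.82, 2.18 and 2.68 times the counts of the +19 kb peak in Vwf+Gata1+ libraries, against 2.56, 2.57, 2.38 and 2.57 times in Vwf-Gata1+ libraries. Replicate 3 was the lowest library of each group. The difference of the mean log2 ratios was 0.03 (2-sided exact permutation p = 0.743, adjusted 0.8286). The Pdzk1ip1 start had 0.401, 0.432, 0.373 and 0.311 times the counts of the Tal1 start in Vwf+Gata1+ libraries, against 0.456, 0.368, 0.367 and 0.365 times in Vwf-Gata1+ libraries, and replicate 1 of Vwf-Gata1+ libraries was the highest of all. The difference of the mean log2 ratios was -0.04 (2-sided exact permutation p = 0.8286, adjusted 0.8286). With 4 libraries against 4, no such p can be below 0.0286, and 1 ratio at that limit alone would have an adjusted p of 0.0857, so that a difference in a single ratio could not pass an adjusted p of 0.05. None of the 3 ratios differed by more than its SD over the Vwf+Gata1+ libraries. The difference of -0.16 in the +40 kb to +19 kb ratio was larger in size than the SD of 0.05 over the Vwf-Gata1+ libraries.

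**Figure D4:**
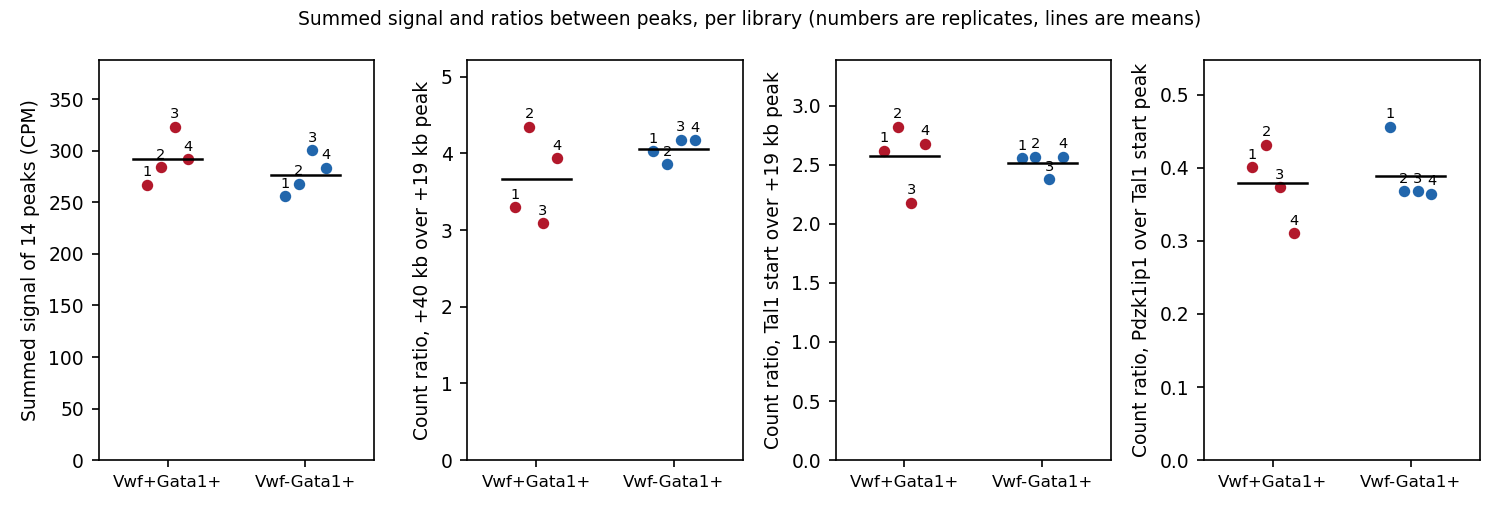
Summed signal of the 14 peaks in CPM (leftmost y axis) and 3 ratios of counts between peaks (other y axes), with Vwf+Gata1+ left of Vwf-Gata1+. Points are libraries, marked with their replicate number, and lines are group means; the groups overlap in all 4 panels.

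Outside the domain, the tested peaks whose signal followed the domain's summed signal most closely over the 8 libraries were named as a description. They lay on chromosome 14 (61775027 to 61775399), chromosome 10 (117539974 to 117540833) and chromosome 12 (70462044 to 70463042), with Pearson's r of 0.991, 0.989 and 0.985 between log2 values. These are the 3 highest of 97026 peaks over 8 points that share the libraries' depths, so values of this size say little about these sites.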

How the data were processed

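The authors deposited 1 table of raw counts, per peak and library, for 134473 peaks and 8 libraries, all of which were used. The build, per the submitters' processing notes, was mm9. MACS2, Bowtie2, SAMtools, Picard, FastQC and Trim Galore were named in the same notes, with no version or role. The sources used here do not give whether a count stands for a read or a fragment, how duplicates and transposase offsets were treated, or how peaks were merged. Starts were read as 1-based.

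The cell type in the labels gave the groups, and the titles gave the replicate numbers. Libraries of a group differed by more than sampling noise (chi-square per degree of freedom 1.32 to 2.09), so all 8 were kept. Low peaks were left out with edgeR's filterByExpr (minimum count 10, minimum total 15), which kept 97040 peaks with 96.3% of counts. After TMM scaling, edgeR's robust quasi-likelihood test was run on the whole table, with Benjamini-Hochberg adjustment over all tested peaks. Standard errors were obtained by dividing the absolute log2 fold change by the root of F. The test was also run on simulated counts, drawn independently for each library, which hold no variation shared by replicate number. Likeness was taken on log2 CPM, adding a prior count of 2. The versions were edgeR 4.0.16, DESeq2 1.42.0 and limma 3.58.1 under R 4.3.3, and scipy 1.17.1 and matplotlib 3.10.9 under Python 3.11.15.

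Peaks named in full were those nearest to the nominal Tal1 start, its +19 kb and +40 kb positions and the Pdzk1ip1 start, the strongest peak, and any with an unadjusted p under 0.05 or without overlap between groups, of which there were 0. The members and these choices were made with earlier results of these data known. Alternatives were RLE and total count scaling, no filter, a minimum of 1 CPM in 4 libraries, limma-voom with quality weights and DESeq2. Further ones were the replicate number as a block and each library left out in turn. Ratios were also formed from all peaks within 1000 bp of a position and per kb of peak. These 2 forms could not change the group differences, since each window held 1 peak and widths do not vary between libraries. The table names no genes and the gene table is of another build, so peaks at Vwf, Gata1 or other pathway genes, exons, introns and untranslated regions were not analysed here.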

Additional observations from a re-analysis of the deposited data

Results flagged for a closer look

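Of 36 groups of 4 libraries looked at (14 peaks, 3 ratios and the summed signal, in each subpopulation), 2 held a library far from the others by Dixon's criterion, which chance alone meets in about 1 of 20 groups. Replicate 3 of Vwf-Gata1+ libraries had 2.38 times as many counts at the Tal1 start as at the +19 kb peak, where the other libraries of its group had 2.56 to 2.57. Replicate 1 of Vwf-Gata1+ libraries had 0.456 times as many counts at the Pdzk1ip1 start as at the Tal1 start, where the others of its group had 0.365 to 0.368. Vwf+Gata1+ libraries ran from 2.18 to 2.82 and from 0.311 to 0.432 in these ratios.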

How the results depend on the processing

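No alternative called a peak of the domain, 0 of 14 in each of 15 other fits, and the lowest adjusted p in any of them was 0.418. DESeq2 gave an adjusted p for 13 of the 14. The sign of the log2 fold change was kept in all 15 fits at 6 peaks, among them the Tal1 start, the +19 kb peak and the Pdzk1ip1 start, and changed in at least 1 fit at the other 8. At the +19 kb peak it ran from 0.0165 to 0.19 with 1 library left out, with the lowest value without replicate 3 of Vwf+Gata1+ libraries. At the +40 kb peak it ran from -0.10 to 0.04 with 1 library left out. It was 0.03 without replicate 1 of Vwf+Gata1+ libraries and 0.038 without replicate 3 of Vwf-Gata1+ libraries. At the weak peak at 7.55 kb the log2 fold change ran from 0.41 to 0.91 over the 15 fits and the unadjusted p was under 0.05 in 7 of them. The highest value was without replicate 1 of Vwf-Gata1+ libraries (edgeR adjusted p = 0.457), and it never passed after adjustment. With 1 library left out, the difference of the log2 ratio of the +40 kb to the +19 kb peak ran from -0.24 to -0.08, with these ends without replicates 2 and 3 of Vwf+Gata1+ libraries, that of the Tal1 start to the +19 kb peak ran from -0.0204 to 0.10, and that of the Pdzk1ip1 start to the Tal1 start from -0.11 to 0.0507. In the fit with a replicate block, 0 peaks of the domain passed and 3 of 14 had an unadjusted p under 0.05, against 10.3% of all tested peaks. They were the Tal1 start (edgeR unadjusted p = 0.0297) and the gene body peaks at 6.66 kb (0.0416) and 7.55 kb (0.0349). All 3 were higher in Vwf+Gata1+ libraries, and the adjusted p of 0.418 was that of the Tal1 start. After adjustment this fit called 375 higher and 136 lower over all tested peaks. For numbers 1 to 4 the libraries' deviations from their group means had correlations of 0.301, 0.163, 0.074 and 0.0103, all above 0. The labels do not say whether libraries of the same number share an animal or day, and the main fit did not pair them. Whether they share a source of variation was not tested. A sign-flip test within numbers gave adjusted p-values of 0.875 for the ratios, and 4 pairs allow no p below 0.125. Over all tested peaks, the 13 higher and 1 lower calls became 21 and 6 with total count scaling, 0 and 0 with limma-voom (7236 of 97040 at an unadjusted p under 0.05), and 11 and 0 with DESeq2 (3372 of 97040). Without 1 library they ran from 3 to 62 higher and from 0 to 9 lower. The cause of these changes was not tested. Within the domain, the weakest peak, at 23.0 kb, had the largest standard error of the log2 fold change in the main fit, 0.35.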

Other observations

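The Tal1 start was also set against the +40 kb peak, a ratio chosen after the values were seen and given with no test. Its counts were 0.794, 0.649, 0.705 and 0.680 times those of the +40 kb peak in replicates 1 to 4 of Vwf+Gata1+ libraries, against 0.635, 0.665, 0.569 and 0.616 times in replicates 1 to 4 of Vwf-Gata1+ libraries. Replicate 2 of Vwf+Gata1+ libraries lay below replicate 2 of Vwf-Gata1+ libraries, and the groups otherwise did not overlap.

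The neighbouring 65 kb on either side had summed signals of 113.3 ± 5.38 CPM upstream and 29.4 ± 6.07 CPM downstream in Vwf+Gata1+ libraries, against 107.3 ± 3.9 and 28.1 ± 5.06 CPM in Vwf-Gata1+ libraries (SD, n = 4 each).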
